A study of Mus musculus with 12 samples.

Results

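Rgs3 and 9 other genes of the regulator of G protein signalling (RGS) family were followed in mouse liver after feeding of the pentapeptide IIAEK, with and without the intestinal phosphatase gene Akp3. The members were Rgs3, Rgs16, Rgs2, Rgs4, Rgs5, Rgs10, Rgs12, Rgs14, Rgs18 and Rgs19, which are 10 of the 22907 gene symbols named on the array. They were represented by 18 of 56605 probes, found through the RefSeq transcript that the array design gives for each probe. Rgs3 was chosen by its higher values with IIAEK in wild-type mice in an earlier look at these arrays, so its values in every comparison that uses the wild-type groups are given as a description. The other 9 genes were added as the family around it.

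The 4 groups were Akp3-/- mice given IIAEK, Akp3-/- mice given vehicle, wild-type mice given IIAEK and wild-type mice given vehicle, with 3 arrays of numbered replicates in each. Arrays are called livers below, although the labels do not say that each came from a separate mouse. All mice were males aged 7 weeks, and the livers were taken after a fast of 8 h. IIAEK, a peptide of isoleucine, isoleucine, alanine, glutamate and lysine known for lowering cholesterol, was given by mouth at 600 mg/kg per day for 14 days, in the 5 g/L carboxymethylcellulose solution that the vehicle mice received alone. The strain background of either genotype is not given in the sources used here, nor whether wild-type and Akp3-/- mice were littermates. Akp3 encodes an alkaline phosphatase of the gut brush border, and its 2 probes were well above background on 0 of 12 liver arrays, so these arrays cannot check the genotype labels.

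RGS proteins bind the active, GTP-bound alpha subunit of a heterotrimeric G protein and speed the hydrolysis of its GTP, which ends the signal of a G protein coupled receptor. Small members such as Rgs2, Rgs4, Rgs5, Rgs16, Rgs18 and Rgs19 consist of little more than the RGS domain, whereas Rgs12 and Rgs14 also carry Ras-binding domains and a GoLoco motif. Rgs3 is transcribed from several starts into long and short isoforms, and it acts on alpha subunits of the Gi and Gq classes. In liver, glucagon and vasopressin act through such receptors, and Rgs16 in mouse hepatocytes is known to follow feeding and the time of day.

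The stretch before the transcription start is shown for the genes on which the results turn: Rgs3, with both starts listed for it, Rgs16, the family member with the widest spread between arrays, and Rgs2, one of those that were highest on a subset of the vehicle arrays. The sequences are from RefSeq on GRCm38.p6, each 250 bases long, 5′ to 3′ on the strand of the gene. They cover chr4:62559597-62559846 and chr4:62619422-62619671 on the plus strand for Rgs3, chr1:153740103-153740352 on the plus strand for Rgs16 and chr1:144004150-144004399 on the minus strand for Rgs2. Capitals mark the GC box GGGCGG, the CRE core TGACG and the TATA box TATAAA on either strand. Searches for the E-box CACGTG and the full CRE TGACGTCA gave no match in these windows.
Rgs3, start 1: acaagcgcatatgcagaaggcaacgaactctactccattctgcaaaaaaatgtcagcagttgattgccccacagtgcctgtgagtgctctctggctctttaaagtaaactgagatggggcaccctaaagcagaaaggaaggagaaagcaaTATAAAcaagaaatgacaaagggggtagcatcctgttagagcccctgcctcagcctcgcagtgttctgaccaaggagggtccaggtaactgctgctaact
Rgs3, start 2: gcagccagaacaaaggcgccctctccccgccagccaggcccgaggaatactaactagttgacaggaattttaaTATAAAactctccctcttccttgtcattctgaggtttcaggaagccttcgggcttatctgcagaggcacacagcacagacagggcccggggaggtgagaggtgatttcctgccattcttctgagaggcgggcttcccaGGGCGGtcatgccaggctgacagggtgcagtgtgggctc
Rgs16: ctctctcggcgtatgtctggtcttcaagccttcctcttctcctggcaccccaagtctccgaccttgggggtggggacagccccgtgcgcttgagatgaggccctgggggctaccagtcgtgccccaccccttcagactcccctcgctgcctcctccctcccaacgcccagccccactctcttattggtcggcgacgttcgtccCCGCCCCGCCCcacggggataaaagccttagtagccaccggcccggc
Rgs2: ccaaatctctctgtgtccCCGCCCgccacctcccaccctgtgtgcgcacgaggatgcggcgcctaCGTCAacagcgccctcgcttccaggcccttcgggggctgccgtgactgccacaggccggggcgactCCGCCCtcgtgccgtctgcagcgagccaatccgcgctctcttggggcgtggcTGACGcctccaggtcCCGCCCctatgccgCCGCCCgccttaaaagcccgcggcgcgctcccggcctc
The 2 Rgs3 windows each held 1 TATA box, at position -100 before start 1 and at position -177 before start 2, and the second also held 1 GC box. The Rgs16 window held 2 overlapping GC boxes and the Rgs2 window held 4 GC boxes and 2 CRE cores. GC content was 48.4% and 56.8% in the Rgs3 windows, 66.4% in that of Rgs16 and 72.4% in that of Rgs2. Of the 32851 promoters of the same length in that table, 32.7% held the GC box, 17.8% the CRE core, 12.4% the TATA box, 6.02% the E-box and 1.55% the full CRE. Of the 10 genes, 8 had a promoter entry, with 12 starts between them, and Rgs14 and Rgs18 had none there. A match is only a description of letters, and the table does not say from which start the transcripts of the individual Rgs3 probes arise.

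Signals are given as log2 of the processed intensity minus the array's 75th percentile, so that 0 is the brightness of a probe at that percentile and a step of 1 is a doubling. Levels of different probes cannot be set against each other. The 75th percentile ran from 315 to 529 intensity units over the arrays, and 56.8% to 61.9% of probes were well above background. As a check of the liver label, all 10 hepatocyte markers were above background on all 12 arrays. The first principal component held 57.8% of the variance and set 4 vehicle arrays apart (knockout vehicle 1 and 3, wild-type vehicle 2 and 3, at 70.9 to 84.6) from the other 8 (-53.4 to -11.2), which included knockout vehicle 2 and wild-type vehicle 1. On these 4 arrays the summed signal of 9 Kupffer cell and macrophage markers was 355 to 459 times the array's 75th percentile, against 120 to 262 on the other 8, and that of the hepatocyte markers was 3350 to 4067, against 4511 to 6935. With these 4 arrays left out, knockout vehicle 2 and wild-type vehicle 1 are the only vehicle arrays of their genotypes, so values without the 4 arrays are a description. Replicate 1 of every group was on one slide and replicates 2 and 3 on the other. Tests were made with limma over 33492 probes that were well above background on every array of at least 1 group, which kept 17 of the 18 RGS probes, and adjusted p is over all of these probes. With 3 arrays a group the exact permutation test of a single value cannot go below p = 0.1. In whole liver, fewer cells of a type and less RNA per cell cannot be told apart.

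No RGS probe passed the threshold of adjusted p 0.05 in any comparison, and few probes of the array did: 0 of 33492 (0%) for IIAEK in knockout mice, 1 (0.00299%) for IIAEK in wild-type mice, 1 (0.00299%) for knockout against wild type under vehicle, 2 (0.00597%) under IIAEK and 0 (0%) for the difference between the IIAEK effects. At an unadjusted p under 0.05 in limma, 4 of 17 RGS probes lay below it for IIAEK in knockout mice, where 6.4% of all probes did. Leaving Rgs3 out, 2 of 13 probes lay below it for IIAEK in wild-type mice, where 12.9% of all probes did. For knockout against wild type, likewise leaving Rgs3 out, 0 of 13 probes lay below it under vehicle and 2 of 13 under IIAEK, where 6.8% and 7.86% of all probes did. With wild-type vehicle 1 left out, 5277 of the 34777 probes then tested were called for IIAEK in wild-type mice. Among the 13 probes other than Rgs3, these were 8 probes of Rgs2, Rgs5, Rgs10, Rgs18 and Rgs19, all lower with IIAEK. The wild-type vehicle arrays then left, 2 and 3, were both among those that stood apart, where these genes had their highest values.

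Rgs3 read higher with IIAEK in both genotypes, while most of the other family members had lower means. Its brightest probe, A_55_P2027102 for transcript NM_134257, read 1.81, 1.78 and 1.81 in the 3 knockout IIAEK livers, against 0.90, 1.26 and 1.12 in the knockout vehicle livers. In wild-type mice it read 1.66, 2.22 and 1.89 with IIAEK, against 0.56, 0.55 and 0.80 with vehicle. Every IIAEK liver lay above every vehicle liver in both genotypes, and the IIAEK livers of the genotypes overlapped.

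In knockout mice, the comparison that did not serve to choose the gene, the mean was 1.80 ± 0.02 with IIAEK and 1.10 ± 0.18 with vehicle (SD, n = 3 each), a log2 difference of 0.71 (SE 0.17, 1.63-fold) with adjusted p = 0.663 in limma. The exact permutation p was 0.1, the smallest possible. In knockout mice 8.43% of all probes were likewise higher with IIAEK without overlap, and 6.46% were lower without overlap. The difference was 0.91 on the slide of replicate 1 and 0.60 on that of replicates 2 and 3. It was 0.54 when the 4 vehicle arrays that stood apart were left out, with knockout vehicle 2 as the only knockout vehicle array. In wild-type mice the mean was 1.92 ± 0.28 with IIAEK and 0.63 ± 0.14 with vehicle (SD, n = 3 each), a log2 difference of 1.29 (2.44-fold), which was 1.10 on one slide, 1.38 on the other and 1.37 without the 4 arrays.

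**Figure D1:**
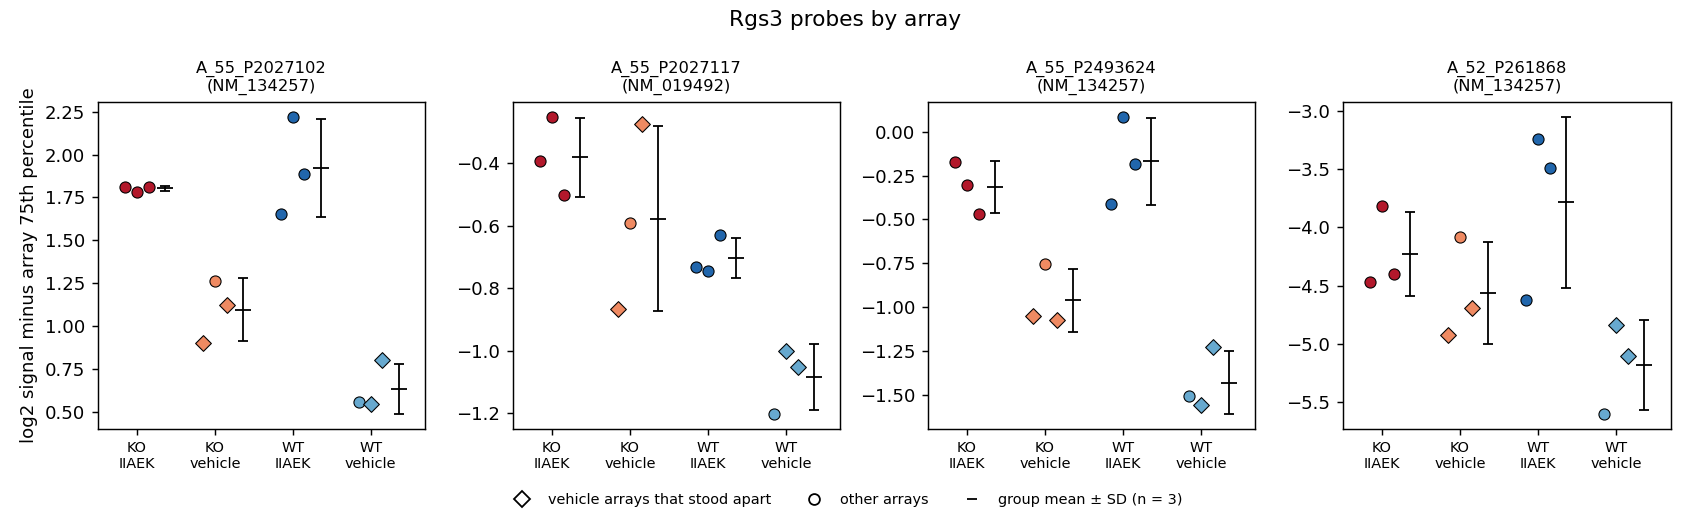
Signals of the 4 Rgs3 probes on every array, as log2 signal minus the array's 75th percentile, in knockout (KO) and wild-type (WT) livers with IIAEK or vehicle. Points are arrays, diamonds the vehicle arrays that stood apart, and bars the group mean ± SD (n = 3). Both A_55_P2027102 and A_55_P2493624 had all IIAEK livers above all vehicle livers of the same genotype. In knockout livers this held for 8.43% of all probes.

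The second probe for the same transcript, A_55_P2493624, read -0.17, -0.30 and -0.47 in knockout IIAEK livers, against -1.05, -0.75 and -1.07 in knockout vehicle livers. In wild-type mice it read -0.41, 0.09 and -0.18 with IIAEK, against -1.51, -1.56 and -1.23 with vehicle. The groups again did not overlap in either genotype, and the ordering of the groups matched that of the first probe. The log2 difference was 0.65 in knockout mice (SE 0.17, adjusted p = 0.663, limma) and 1.26 in wild-type mice.

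Probe A_55_P2027117, designed for the other Rgs3 transcript NM_019492, differed less with IIAEK. It read -0.39, -0.25 and -0.50 in knockout IIAEK livers, against -0.87, -0.59 and -0.28 in knockout vehicle livers, and -0.73, -0.75 and -0.63 in wild-type IIAEK livers, against -1.20, -0.9996 and -1.05 in wild-type vehicle livers. Here the knockout IIAEK and vehicle livers overlapped, whereas the wild-type groups did not, and every knockout liver lay above every wild-type liver given the same treatment. The log2 difference with IIAEK was 0.20 in knockout mice (SE 0.16, adjusted p = 0.682, limma) and 0.38 in wild-type mice.

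The dimmest Rgs3 probe, A_52_P261868, also for NM_134257, was above background on 11 of 12 arrays, all but wild-type vehicle 1. It read -4.47, -3.81 and -4.40 in knockout IIAEK livers, against -4.93, -4.08 and -4.69 in knockout vehicle livers, and -4.62, -3.24 and -3.49 in wild-type IIAEK livers, against -5.60, -4.84 and -5.10 in wild-type vehicle livers. The knockout groups overlapped and the wild-type groups did not. The log2 difference was 0.34 in knockout mice (SE 0.37, adjusted p = 0.737, limma) and turned to -0.15 without the 4 arrays that stood apart, and it was 1.40 in wild-type mice, or 0.49 after normexp background correction.

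Between genotypes, Rgs3 was higher in knockout than in wild-type livers under vehicle on all 4 probes, without overlap on 3 of them. The log2 differences were 0.46 for A_55_P2027102, 0.47 for A_55_P2493624, 0.51 for A_55_P2027117 and 0.61 for A_52_P261868, the last being -0.02 after normexp background correction. Of all probes, 3.38% were higher in knockout vehicle livers without overlap and 5.24% were lower, which held for 0 RGS probes. Under IIAEK the differences were -0.12, -0.15, 0.32 and -0.45 in the same order of probes, and only A_55_P2027117 did not overlap between genotypes. Accordingly the IIAEK difference of knockout mice minus that of wild-type mice was -0.58, -0.62, -0.19 and -1.06 on the 4 probes. These values share the wild-type livers from which the gene was chosen and carry no test.

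The genes whose brightest probe followed that of Rgs3 most closely over the 12 arrays, among 14169 named genes above background on all of them, were Pikfyve (Pearson r = 0.918), a lipid kinase of endosomes, Uck1 (0.913), a uridine-cytidine kinase, Lcmt2 (0.901), a tRNA-modifying methyltransferase, Exosc6 (0.898), an RNA exosome subunit, and Foxa2 (0.894), a liver transcription factor. Foxa2 averaged 3.98 ± 0.14 in knockout IIAEK and 3.21 ± 0.47 in knockout vehicle livers, and 3.88 ± 0.07 in wild-type IIAEK and 2.69 ± 0.50 in wild-type vehicle livers (SD, n = 3 each). These arrays share the group structure and the 4 arrays that stood apart, so the correlations describe likeness only.

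Rgs12 also had higher means under IIAEK in both genotypes. Its brightest probe, A_55_P2002122, read 0.62, 0.84 and 0.89 in knockout IIAEK livers, against -0.46, 0.51 and 0.17 in knockout vehicle livers, and -0.19, -0.08 and 0.07 in wild-type IIAEK livers, against -0.33, -0.57 and -0.25 in wild-type vehicle livers. The IIAEK livers lay above the vehicle livers without overlap in both genotypes, which held for 1.11% of all probes, and the knockout IIAEK livers were the highest 3 of the 12. The log2 difference was 0.71 in knockout mice (SE 0.22, adjusted p = 0.663, limma) and 0.32 in wild-type mice (SE 0.22, adjusted p = 0.504, limma), with 0.28 and 0.27 without the 4 arrays that stood apart.

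Knockout IIAEK livers exceeded wild-type IIAEK livers on this Rgs12 probe by 0.85 log2 units (SE 0.22, 1.80-fold, adjusted p = 0.626, limma), by 0.81 on one slide and 0.87 on the other. The second Rgs12 probe above background, A_55_P2905246, read -2.43, -2.10 and -2.15 in knockout IIAEK livers, against -3.27, -2.63 and -2.28 in knockout vehicle livers, and -2.65, -2.57 and -2.82 in wild-type IIAEK livers, against -2.93, -3.04 and -2.74 in wild-type vehicle livers. It moved in the same directions with smaller differences, 0.50 with IIAEK in knockout mice (adjusted p = 0.663, limma) and 0.22 in wild-type mice (adjusted p = 0.647, limma), and its groups overlapped in both. Under IIAEK, 3 of 17 RGS probes were higher in knockout than in wild-type livers without overlap (1 of Rgs3 and both of Rgs12), against 12.3% of all probes.

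Rgs16, which in mouse liver is known to respond to fasting and glucose, varied more within groups than between their means. It read 2.16, 0.97 and 2.54 in knockout IIAEK livers, against 0.82, 1.89 and 0.14 in knockout vehicle livers, and 1.36, 2.69 and 3.17 in wild-type IIAEK livers, against 3.96, 1.59 and 1.005 in wild-type vehicle livers. The groups overlapped in both genotypes, and the highest of all 12 values was that of wild-type vehicle 1. The log2 difference with IIAEK was 0.94 in knockout mice (SE 0.78, adjusted p = 0.682, limma) and 0.22 in wild-type mice (SE 0.78, adjusted p = 0.906, limma). The wild-type difference was -2.60 on the slide of replicate 1 and 1.63 on that of replicates 2 and 3, and it was 1.11 without wild-type vehicle 1. Without the 4 arrays that stood apart it was -0.00502 in knockout and -1.56 in wild-type mice.

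Wild-type vehicle 1 also had the highest summed signal of 6 pancreas markers, 28.5 times the array's 75th percentile, against 8.71 to 16.7 on the other arrays, and its part in the Rgs16 value was not tested. The genes closest to Rgs16 over the 12 arrays were N4bp2l1 (Pearson r = 0.934), Lce3d (0.926), Dnajc3 (0.912), a chaperone helper of the endoplasmic reticulum, Bloodlinc (0.895), a long non-coding RNA, and Gm5592 (0.895).

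Rgs4, which acts on Gi and Gq subunits, was lowest in the knockout IIAEK livers. It read -4.31, -4.39 and -4.12 there, against -2.69, -3.85 and -3.06 in knockout vehicle livers, and -2.08, -3.52 and -3.56 in wild-type IIAEK livers, against -3.20, -2.20 and -2.37 in wild-type vehicle livers. The knockout IIAEK livers lay below all 9 other livers, and the wild-type groups overlapped. The log2 difference with IIAEK was -1.07 in knockout mice (SE 0.42, adjusted p = 0.663, limma) and -0.42 without the 4 arrays that stood apart. In wild-type mice it was -0.46 (SE 0.42, adjusted p = 0.612, limma), made up of 1.12 on one slide and -1.25 on the other. The log2 difference of knockout IIAEK from wild-type IIAEK livers was -1.22 (SE 0.42, adjusted p = 0.626, limma). Rgs4 was the 1 RGS probe of 17 that was lower there without overlap, against 15.2% of all probes.

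Rgs5, an established marker of pericytes and vascular smooth muscle, read 1.22, 1.28 and 0.88 in knockout IIAEK livers, against 1.83, 1.44 and 1.77 in knockout vehicle livers, and 1.37, 1.07 and 1.71 in wild-type IIAEK livers, against 1.47, 2.71 and 1.96 in wild-type vehicle livers. The knockout IIAEK livers lay below the knockout vehicle livers without overlap, and the wild-type groups overlapped. The log2 difference was -0.55 in knockout mice (SE 0.29, adjusted p = 0.663, limma), or -0.31 without the 4 arrays, and -0.66 in wild-type mice (SE 0.29, adjusted p = 0.385, limma), or -0.08 without them. The summed signal of 12 stellate cell, pericyte and smooth muscle markers was 32.9 to 57.1 times the array's 75th percentile in knockout IIAEK and 39.3 to 79.9 in knockout vehicle livers, and 21.5 to 25.9 in wild-type IIAEK and 32.3 to 76.0 in wild-type vehicle livers, with 10 of the 12 markers above background on all arrays. The part of these cells in the Rgs5 values was not tested. In knockout mice, 3 of 17 RGS probes were higher with IIAEK without overlap (2 of Rgs3 and 1 of Rgs12, against 8.43% of all probes) and 2 were lower (Rgs4 and Rgs5, against 6.46%). In wild-type mice, 5 were higher (the 4 of Rgs3, which chose the gene, and 1 of Rgs12, against 7.65%) and 0 were lower (against 5.58%).

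**Figure D2:**
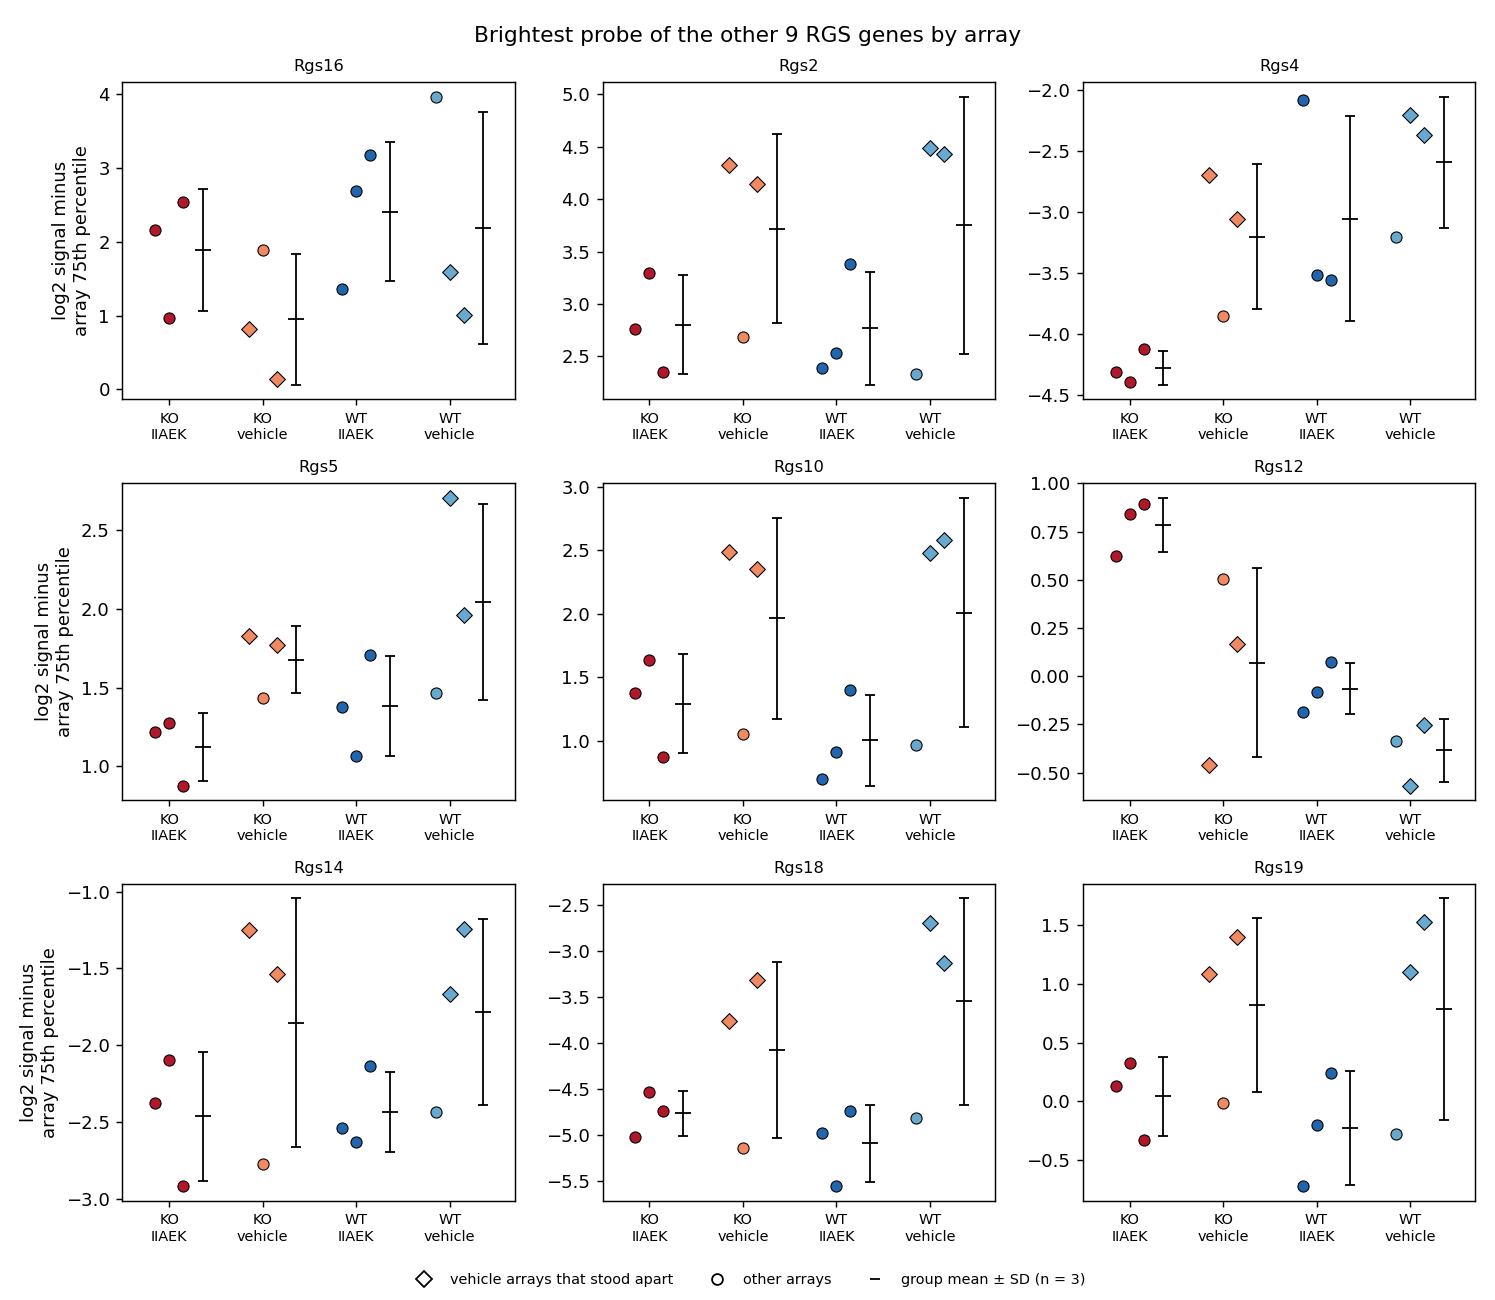
Signals of the brightest probe of each of the other 9 RGS genes on every array, as log2 signal minus the array's 75th percentile, in knockout (KO) and wild-type (WT) livers with IIAEK or vehicle. Diamonds mark the 4 vehicle arrays that stood apart and bars the group mean ± SD (n = 3). In the panels of Rgs2, Rgs5, Rgs10, Rgs14, Rgs18 and Rgs19 the 4 diamonds are the highest values.

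The remaining members, Rgs2, Rgs10, Rgs14, Rgs18 and Rgs19, were highest on the 4 vehicle arrays that stood apart, but not on the other 2 vehicle arrays. Rgs2, which acts mainly on Gq subunits and in many cell types is quickly induced by hormones and stress, read 2.77, 3.29 and 2.36 in knockout IIAEK livers, against 4.33, 2.69 and 4.15 in knockout vehicle livers. In wild-type mice it read 2.39, 2.53 and 3.38 with IIAEK, against 2.34, 4.49 and 4.43 with vehicle. The 4 vehicle arrays that stood apart held the highest 4 values (4.15 to 4.49, against 2.34 to 3.38 on the other 8), and knockout vehicle 2 and wild-type vehicle 1 lay among the IIAEK livers. The log2 difference with IIAEK was -0.92 in knockout mice (SE 0.60, adjusted p = 0.663, limma) and -0.98 in wild-type mice (SE 0.60, adjusted p = 0.450, limma), and 0.12 and 0.43 without the 4 arrays.

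Rgs10, best known from microglia and other immune cells, read 1.37, 1.64 and 0.87 on its brighter probe in knockout IIAEK livers, against 2.49, 1.05 and 2.35 in knockout vehicle livers, and 0.70, 0.91 and 1.40 in wild-type IIAEK livers, against 0.96, 2.48 and 2.58 in wild-type vehicle livers. The same 4 vehicle arrays were high and the other 2 vehicle arrays were not, so the groups overlapped. Its 2 probes gave log2 differences of -0.67 and -0.65 in knockout mice (adjusted p = 0.665 and 0.671, limma) and of -1.005 and -0.92 in wild-type mice (adjusted p = 0.389 and 0.419, limma). Without the 4 arrays they were 0.24 and 0.19 in knockout and 0.04 and 0.33 in wild-type mice.

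Rgs19, also called GAIP, a protein that binds a Gi alpha subunit, read 0.13, 0.33 and -0.33 on its brightest probe in knockout IIAEK livers, against 1.08, -0.02 and 1.40 in knockout vehicle livers, and -0.73, -0.21 and 0.24 in wild-type IIAEK livers, against -0.28, 1.11 and 1.53 in wild-type vehicle livers. The 4 arrays were again the highest, on this probe and on its other 2. The 3 probes gave log2 differences of -0.78, -0.88 and -0.81 in knockout mice (adjusted p = 0.663 each, limma) and of -1.01, -1.05 and -0.93 in wild-type mice (adjusted p from 0.385 to 0.406, limma). Without the 4 arrays all 3 lay between -0.02 and 0.06 in knockout mice and between -0.06 and 0.15 in wild-type mice.

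Rgs14 read -2.37, -2.10 and -2.92 in knockout IIAEK livers, against -1.25, -2.77 and -1.54 in knockout vehicle livers, and -2.54, -2.63 and -2.13 in wild-type IIAEK livers, against -2.43, -1.67 and -1.24 in wild-type vehicle livers. The split between the vehicle arrays was the same as for Rgs2. The log2 difference was -0.61 in knockout mice (SE 0.41, adjusted p = 0.663, limma) and -0.65 in wild-type mice (SE 0.41, adjusted p = 0.460, limma), and 0.31 and 0.00072 without the 4 arrays.

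Rgs18, known from platelets and their precursors, was above background on 9 of 12 arrays, on all 6 knockout arrays but on 1 of 3 wild-type IIAEK and 2 of 3 wild-type vehicle arrays. It read -5.02, -4.53 and -4.74 in knockout IIAEK livers, against -3.76, -5.14 and -3.31 in knockout vehicle livers, and -4.97, -5.55 and -4.74 in wild-type IIAEK livers, against -4.81, -2.70 and -3.12 in wild-type vehicle livers. Its highest 4 values were again those of the 4 arrays. The log2 difference was -0.69 in knockout mice (SE 0.56, adjusted p = 0.675, limma) and -1.54 in wild-type mice (SE 0.56, adjusted p = 0.385, limma), and 0.38 and -0.27 without them.

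Across the family, 9 of 17 tested probes, belonging to these 5 genes and Rgs5, had their highest 4 values on the 4 vehicle arrays that stood apart, against 10.1% of all probes. The 6 detected platelet markers summed to 2.12 to 3.19 times the array's 75th percentile on those arrays, against 0.84 to 1.16 on the other 8, with 4 of the 6 above background on all arrays and Itga2b, Gp1ba, Gp6 and Tubb1 not tested because of low signal. Such a sum follows the brightest markers. The median log2 deviation of those 4 markers from their own means was 0.39, 0.28 and 0.93 on wild-type vehicle 2 and 3 and knockout vehicle 3. On knockout vehicle 1 it was -0.04, within the range of the other 8 arrays (-0.43 to 0.007). The 9 Kupffer cell and macrophage markers, all above background on all arrays, summed to 120 to 211 in knockout IIAEK and 160 to 399 in knockout vehicle livers, and to 125 to 262 in wild-type IIAEK and 157 to 459 in wild-type vehicle livers. Their part in the values of Rgs2, Rgs10, Rgs14, Rgs18 and Rgs19 was not tested. Under vehicle, knockout and wild-type livers overlapped on all probes of these 5 genes.

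**Figure D3:**
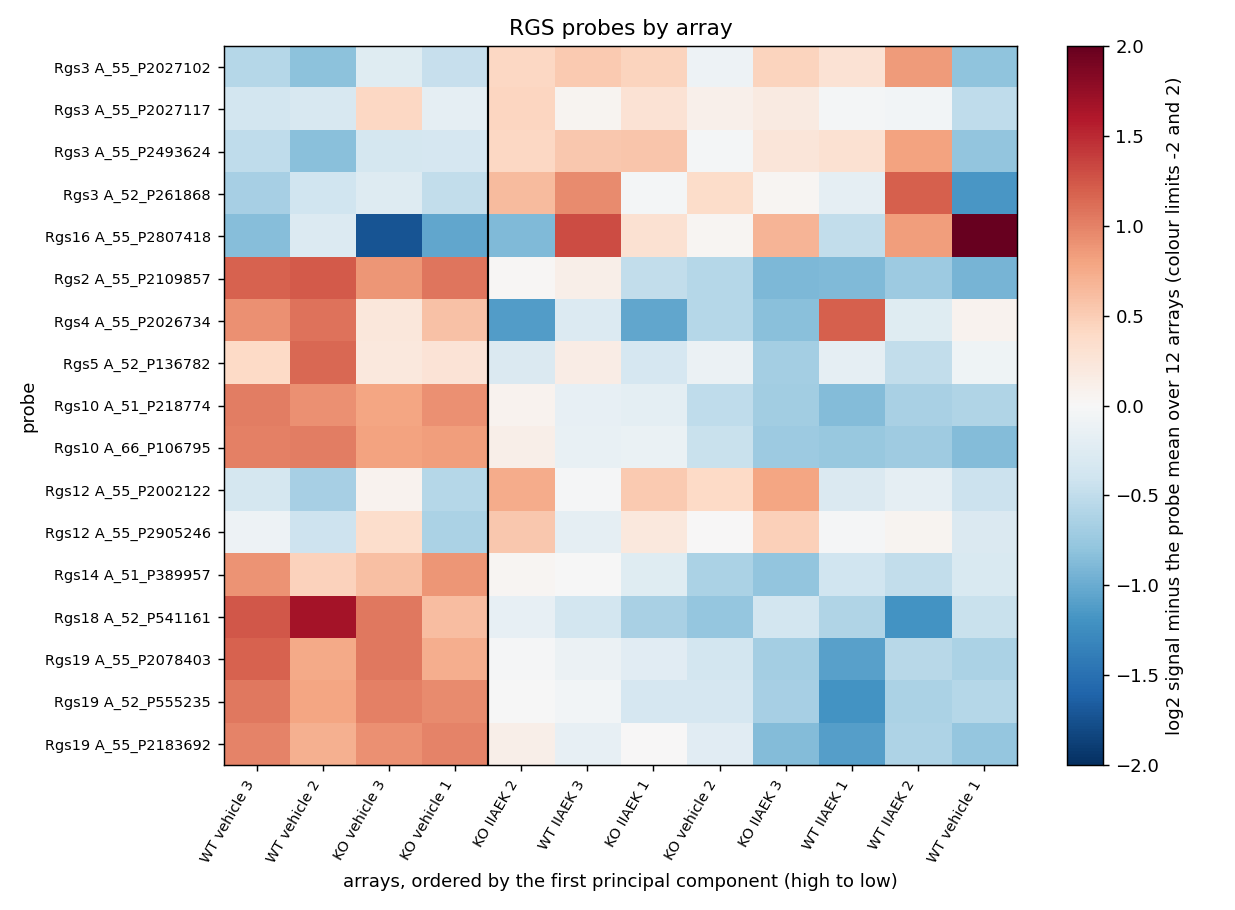
The 17 tested RGS probes (rows) on the 12 arrays (columns, ordered by the first principal component, with the 4 vehicle arrays that stood apart left of the line), coloured by log2 signal minus the probe's mean over all arrays. Rgs2, Rgs5, Rgs10, Rgs14, Rgs18 and Rgs19 are red left of the line, where 3 of the 4 Rgs3 probes are blue.

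**Figure D4:**
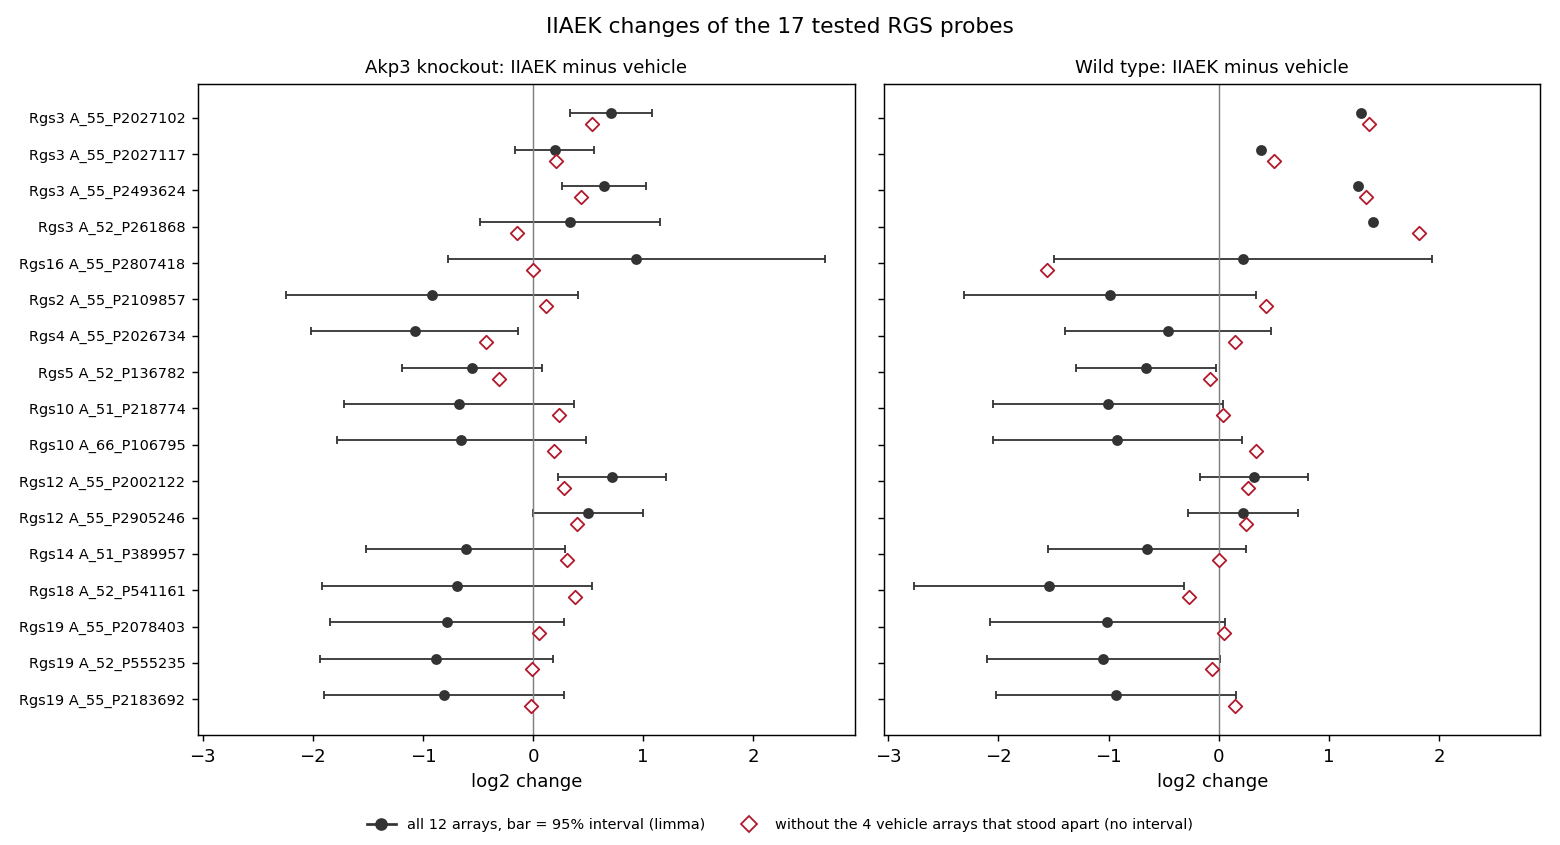
Log2 change with IIAEK against vehicle in knockout (left) and wild-type (right) livers for the 17 tested RGS probes. Dots are limma estimates on all 12 arrays, with 95% intervals except for Rgs3 in wild type. Open diamonds are the changes without the 4 vehicle arrays that stood apart, against knockout vehicle 2 or wild-type vehicle 1 alone. The Rgs3 and Rgs12 dots lie right of 0 in both genotypes, and the diamonds of Rgs2, Rgs10 and Rgs14 lie at or right of 0.

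Over the whole family, 7 of 17 probes had a higher mean with IIAEK in knockout mice and 7 of 17 in wild-type mice, where 55.6% and 55.9% of all probes did. The median log2 change of the 13 probes other than Rgs3 was -0.67 in knockout mice and -0.92 in wild-type mice, beside 0.04 and 0.05 over all probes. These medians count Rgs10, Rgs12 and Rgs19 by more than 1 probe each and depend on the vehicle arrays that stood apart. Without those arrays Rgs2, Rgs10 and Rgs14 were no longer lower in either genotype, and the Rgs19 probes lay between -0.06 and 0.15. Rgs5 then changed by -0.31 in knockout and -0.08 in wild-type mice, and Rgs16 by -0.00502 and -1.56. Rgs4 changed by -0.42 and 0.15, and Rgs18 by 0.38 and -0.27, in the same order. Rgs16 in knockout and Rgs14 in wild-type mice (0.00072) thus hardly changed. Each of these values rests on the only vehicle array left in its genotype. None of these 13 probes had an unadjusted p under 0.05 in limma for the difference between the IIAEK effects of the genotypes, where 1.64% of all probes did. Of the 10 genes, 5 (Rgs2, Rgs4, Rgs5, Rgs16 and Rgs18) lie on chromosome 1, which also carries Akp3, and Rgs3 lies on chromosome 4.

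Other parts of the G protein pathway gave no probe past the threshold in limma for IIAEK in either genotype, in either direction. Of 13 detected G alpha genes, 1 in knockout and 2 in wild-type mice had an unadjusted p under 0.05, as 6.4% and 12.9% of all probes did, and of 11 G beta and gamma genes 0 and 0. Of 17 hepatic G protein coupled receptor genes, 2 and 6 did, of 15 effector genes 0 and 2, and of 11 other regulators 0 and 0. The 16 genes listed as other RGS family genes include Axin1, Axin2 and the RGS-binding protein genes Rgs7bp and Rgs9bp. Of these 16 genes 9 were detected, of which 2 and 5 had an unadjusted p under 0.05. A higher mean with IIAEK was seen for 5 of the 9 in knockout and 5 in wild-type mice. The median log2 changes in knockout and wild-type mice were 0.06 and 0.07 for G alpha and 0.04 and -0.03 for G beta and gamma. They were 0.11 and -0.01 for the receptors and 0.10 and 0.11 for the effectors. For the other regulators they were -0.10 and -0.07, and for the other RGS genes 0.03 and 0.20.

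Among the other RGS genes, the 2 with the smallest p were Rgs9, a regulator known from photoreceptors and striatum, and Rgs17. Rgs9 averaged -3.08 ± 0.20 in knockout IIAEK and -2.39 ± 0.46 in knockout vehicle livers, and -3.48 ± 0.28 in wild-type IIAEK and -2.55 ± 0.35 in wild-type vehicle livers (SD, n = 3 each), with adjusted p = 0.663 and 0.385 in limma. Rgs17 was above background on 0 of 3 wild-type IIAEK arrays and 2 of 3 wild-type vehicle arrays, at least 2.37-fold lower with IIAEK (adjusted p = 0.385, limma), where fold is computed against the lowest signal above background. Gnat1, the alpha subunit of rod photoreceptors, averaged -5.40 ± 1.05 in wild-type IIAEK and -3.15 ± 0.37 in wild-type vehicle livers (adjusted p = 0.385, limma), above background on 1 and 3 of 3 arrays. Gnai1, an inhibitory alpha subunit, averaged -2.33 ± 0.21 in knockout IIAEK and -1.26 ± 0.69 in knockout vehicle livers (adjusted p = 0.663, limma). Ptger4, a prostaglandin E2 receptor, averaged -3.21 ± 0.54 in wild-type IIAEK and -1.48 ± 0.89 in wild-type vehicle livers (adjusted p = 0.385, limma). The effector gene Adcy7, an adenylyl cyclase, averaged -0.53 ± 0.52 in wild-type IIAEK and 0.75 ± 1.03 in wild-type vehicle livers, and Adcy5, another adenylyl cyclase, -3.43 ± 0.29 and -4.02 ± 0.18 in the same groups (SD, n = 3 each, adjusted p = 0.385 for both, limma). In the other genotype, knockout, the log2 changes with IIAEK were -0.10 for Gnat1, -0.82 for Ptger4, -0.73 for Adcy7, 0.17 for Adcy5 and -0.82 for Rgs17. Gnai1 changed by -0.67 in wild-type mice.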

How the data were processed

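Total RNA of liver was measured on 12 one-colour Agilent arrays. Per the file headers, the authors' deposited files were written by Agilent Feature Extraction 10.7.3.1 and hold an intensity per spot, already background-subtracted and not scaled across arrays. The deposited series table holds log2 values centred on each probe's median, used only as an alternative. Control spots and spots marked non-uniform were left out and spots of a probe averaged, which gave 56605 probes. Transcripts were matched to a RefSeq table, which named 32989 probes. The headers give build mm9 and that table GRCm38.p6, so no gene coordinates were taken across. One label of the IIAEK samples gives weeks where titles give days, and 14 days was used.

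From each log2 signal the 75th percentile of its array was subtracted. Probes detected above background throughout 1 group or more (33492) were fitted with limma 3.58.1 (R 4.3.3) as 4 group means over 12 arrays, with Benjamini-Hochberg adjustment over all of them (threshold 0.05, two-sided, 8 residual and 2.80 prior degrees of freedom). SE is limma's. The procedure was tested on simulated data. The labels number the replicates without saying that each is a separate mouse, so p-values measure the spread between these samples, which may be technical.

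The members, gene lists and tests were chosen with earlier results of these data known. All members were named with every probe. From each pathway list the 2 genes with the smallest p for IIAEK were eligible, and the 5 genes nearest to Rgs3 and to Rgs16 were named. One gene that this rule makes eligible is not reported here. Alternatives were normexp background correction (offset 50), quantile normalization, the series table, other filters, slide or replicate number as a block, slide 2 alone, only the groups compared, array weights, limma's trend and robust options, the brightest probe of each gene and leaving out each array. The analysis leaving out 4 vehicle arrays was chosen after seeing the data.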

Additional observations from a re-analysis of the deposited data

Results flagged for a closer look

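The dimmest Rgs12 probe, A_55_P2002129, was left out of the tests because it was not above background on all arrays of any group. It was above background on 2 of 12 arrays, both from knockout mice given IIAEK. It read -4.90, -4.89 and -5.47 in knockout IIAEK livers, against -5.75, -5.57 and -6.10 in knockout vehicle livers, and -5.44, -6.70 and -5.48 in wild-type IIAEK livers, against -6.04, -7.07 and -5.91 in wild-type vehicle livers. The 2 arrays with signal were those of replicates 1 and 2, and values not above background are given as measured. The difference was not tested.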

How the results depend on the processing

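The 3 arrays per group limit the precision of every value, and 2 of the 17 tested RGS probes were not above background on all arrays. Array weights called 3 of 17 RGS probes for IIAEK in knockout mice (Rgs3 A_55_P2027102 with adjusted p = 0.0472, Rgs3 A_55_P2493624 and Rgs12 A_55_P2002122 with 0.0486 each) and 907 of 33492 probes in all. Knockout vehicle 2 had a weight of 0.37 there, against 1.21 and 1.22 for knockout vehicle 1 and 3. The knockout vehicle group was thus weighted towards the arrays that stood apart. The lowest weight, 0.20, went to wild-type vehicle 1. Leaving out one array gave 0 to 10 called RGS probes for IIAEK in wild-type mice and 0 in the other 4 comparisons. The 10, and 5277 of 34777 probes in all, came without wild-type vehicle 1, and 2 of the 10 were probes of Rgs3, which these values chose and for which they are no test. The wild-type vehicle arrays left in that setting were both among those that stood apart. With single arrays left out, adjusted p for Rgs3 A_55_P2027102 in knockout mice lay between 0.162 and 0.965.

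Calls over all tested probes, whose number changed with the setting (33565 to 34777 with one array left out, 56605 with no filter), ran with one array left out from 0 to 5277 for IIAEK in wild-type mice, 0 to 5 in knockout mice, 1 to 2 for genotype under vehicle, 0 to 5 under IIAEK and 0 to 1 for the difference. For IIAEK in wild-type mice they were 2 with no filter, 9 when the 4 vehicle arrays standing apart were left out, and 0 with the slide as a block, on slide 2 only, with only the groups compared or with array weights. In knockout mice they were 1 with no filter, on slide 2 only or with only the groups compared. For genotype under vehicle they were 2 with normexp background correction, 0 with only the groups compared and 86 without the 4 arrays. Under IIAEK they were 0 with quantile normalization, no filter, the slide as a block or slide 2 only, 10 with only the groups compared and 41 with array weights. Knockout vehicle 2 and wild-type vehicle 1 were the only vehicle arrays left without the 4 that stood apart. The calls given for that setting are therefore a description and no test. Those for genotype under vehicle compared these arrays alone.

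Same-numbered replicates did not consistently deviate together (correlations of their deviations from -0.54 to 0.65). These correlations cannot show whether the numbers pair mice, since they also carry the split between the vehicle arrays. With the replicate block, calls were 0 for IIAEK in wild-type mice and 0 for genotype under IIAEK, and no RGS probe was called.

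Without the 4 arrays the IIAEK change turned in sign in wild-type mice for Rgs16 (-1.56), Rgs2 (0.43), Rgs4 (0.15), Rgs10 (0.0388 and 0.33), Rgs14 (0.00072) and 2 probes of Rgs19 (0.0509 and 0.15), and in knockout mice for Rgs3 A_52_P261868 (-0.15), Rgs16 (-0.00502), Rgs2 (0.12), Rgs10 (0.24 and 0.19), Rgs14 (0.31), Rgs18 (0.38) and Rgs19 A_55_P2078403 (0.0576). Normexp turned the genotype difference of Rgs3 A_52_P261868 under vehicle (-0.0194). Slide 2 alone turned the difference between IIAEK effects for Rgs16 (-0.89) and Rgs4 (0.45). Over single arrays left out, the Rgs16 change in wild-type mice ran from -0.37 to 1.11, its difference between effects from -0.17 to 1.31, and the genotype difference of Rgs3 A_55_P2027102 under IIAEK from -0.25 to 0.0298. Without the 4 arrays, knockout vehicle 2 and wild-type vehicle 1 were the only vehicle arrays, so those turns rest on these arrays alone. The cause of the turns was not tested.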

Other observations

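Genes that share known inputs with members of the family were also read. Rgs16 is known as a carbohydrate-responsive gene, and of 14 genes of the carbohydrate response (targets of the factor ChREBP) 12 had a higher mean with IIAEK in knockout mice and 14 in wild-type mice, with median log2 changes of 0.63 and 0.76, where 55.6% and 55.9% of all probes had a higher mean. In limma 0 passed the threshold in either genotype, and 4 and 3 had an unadjusted p under 0.05, as 6.4% and 12.9% of all probes did. Thrsp, a lipogenic nuclear protein, averaged 2.31 ± 0.58 in knockout IIAEK and -0.07 ± 1.96 in knockout vehicle livers (adjusted p = 0.663, limma), and 2.38 ± 0.55 in wild-type IIAEK and 0.51 ± 1.54 in wild-type vehicle livers (SD, n = 3 each, adjusted p = 0.395). Summed signals of this list were 419 to 531 times the array's 75th percentile on the 4 vehicle arrays that stood apart, against 953 to 1312 on the other 8.

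Rgs2 belongs to the quickly induced genes, and of 15 immediate early genes 1 had a higher mean with IIAEK in each genotype, with median log2 changes of -1.52 in knockout and -1.43 in wild-type mice. In limma 0 passed the threshold, and 8 and 11 had an unadjusted p under 0.05, as 6.4% and 12.9% of all probes did. Egr1, a transcription factor induced within minutes by many signals, averaged -1.09 ± 0.35 in knockout IIAEK and 0.82 ± 1.30 in knockout vehicle livers (adjusted p = 0.663, limma), and -1.74 ± 0.41 in wild-type IIAEK and 0.68 ± 1.05 in wild-type vehicle livers (SD, n = 3 each, adjusted p = 0.385). Their summed signal was 77.8 to 103 times the array's 75th percentile on the 4 arrays, against 37.9 to 56.1 on the other 8. Of 15 core clock genes 0 passed in limma in either genotype, and 0 in knockout and 6 in wild-type mice had an unadjusted p under 0.05, beside the same shares of all probes. Ciart, a circadian repressor, averaged -2.42 ± 1.48 in knockout IIAEK and -3.19 ± 0.66 in knockout vehicle livers, and -4.82 ± 0.16 in wild-type IIAEK, where 1 of 3 arrays was above background, and -2.21 ± 1.34 in wild-type vehicle livers (SD, n = 3 each, adjusted p = 0.711 and 0.385, limma). Clock, a core clock transcription factor, averaged 2.98 ± 0.05 in knockout IIAEK and 2.70 ± 0.39 in knockout vehicle livers, and 3.47 ± 0.10 in wild-type IIAEK and 2.65 ± 0.50 in wild-type vehicle livers (SD, n = 3 each, adjusted p = 0.695 and 0.385, limma).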
